A study of Mus musculus with 8 samples.

Results

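The genes described here are 42 genes of the cellular response to low oxygen and of glycolysis, out of 35498 genes in the deposited tables. They were chosen by name as known targets or regulators of the hypoxia-inducible factors (HIF) and as enzymes and carriers of glucose breakdown. The choice was made with earlier results of these data known. The values of each gene are sums over its transcripts. All 42 passed the filter on low counts and were among the 16309 genes tested.

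RNA of sorted mouse sarcoma cells had been sequenced in bulk in 8 libraries, 2 in each of 4 groups. The cells derived from C57BL/6 mesenchymal stem cells that had been transformed by knockout of p53 and overexpression of Ccne1, and had first formed tumours in primary recipient mice. They then received a non-targeting guide RNA (sgSCR) or a guide against Mif (sgMif) with Cas9, or a non-targeting hairpin (shSCR) or a hairpin against Mif (shMif), and grew under the skin of secondary recipients on polyurethane scaffolds to about 1 cm3 before the tumour cells were sorted on a fluorescent marker. The series text places Cas9 in the hairpin experiment as well, while the growth protocol names it for the guide samples. The sample titles label sgMif as Mif-KO (knockout), shMif as Mif-KD (knockdown) and both control groups as Mif-WT (wild type). Mif encodes macrophage migration inhibitory factor, and the study asked how its expression in the tumour bears on pathways within the tumour cells. All 4 groups carried the p53 knockout and the Ccne1 overexpression, and the sources used here do not give the age of the mice, the pooling of tumours or the number of clones behind each group. The labels do not tie the libraries to single mice, so every p-value refers to library-to-library spread, and that spread may be technical.

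Cells short of oxygen stop hydroxylating the HIF alpha subunits, which are then no longer marked for destruction, pair with ARNT and bind short DNA elements built around ACGTG or GCGTG. The genes switched on in this way raise glucose uptake, glycolysis and lactate export, hold back the entry of pyruvate into mitochondria, buffer acid and send signals that bring in blood vessels. In solid tumours many of these genes are also driven by growth signalling, and glycolytic enzymes are abundant in most proliferating cells.

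Total estimated reads ranged from 19042235 to 51819308 per library. Mesenchymal and sarcoma markers summed to 16213 to 36858 CPM (read counts relative to the library's effective total, set by the trimmed mean of M values), so mesenchymal genes were abundant in every library, while the 6 neutrophil markers summed to 4.76 to 37.2 CPM and 1 of them, Ly6g, was at 0 in all 8. shSCR 1 stood apart, with 1.63% of its reads on mitochondrial genes against 2.12 to 2.65% elsewhere and 5.41% on retained-intron transcripts against 3.90 to 4.84%. Olfactory receptor genes, which such cells are not known to use, summed to 1330 to 2544 CPM in 5 libraries and to 379.8 to 553 CPM in sgMif 2, shSCR 2 and the library labelled shMif 2. Mif itself measured 377 and 455 CPM in sgSCR, 221 and 222 CPM in sgMif, 170.2 and 375 CPM in shSCR, and 277 and 222 CPM in the libraries labelled shMif. The sgMif libraries were the lower pair for Mif, by 0.91 ± 0.32 (SE) on the log2 scale, which did not pass the test (edgeR, adjusted p = 0.215). The libraries labelled shMif lay within the range of shSCR for Mif (log2 fold change -0.13 ± 0.32, adjusted p = 0.925), so the RNA does not show the labelled knockdown.

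Promoter sequence was available from RefSeq (GRCm38.p6, the build of mm10) for 36 of the 42 genes, in 54 windows of the 250 bases before an annotated start. The core letters ACGTG or GCGTG, searched on both strands, were present in 75.9% of those windows, against 38.6% of all 32851 windows of the same length. For ACGTG alone the shares were 42.6% and 16.6%, and for GCGTG alone 50% and 28.2%. The palindrome CACGTG, which holds ACGTG on both strands and is also the letters read by MYC-type factors, was present in 11.1% and 6.02%. A match is a description of the letters and not of a bound site. Bhlhe40, Bnip3l, Epas1, Ero1l, Ndrg1 and Slc2a3 had no entry. A single window is shown for each of 5 genes: Slc2a1 and Plin2, on which values below turn, Bnip3 and Ldha, with several matches each, and Car9, with a single one. Capitals mark ACGTG and GCGTG on either strand (CACGT and CACGC on the strand shown).
Slc2a1 promoter, chr4:119108495-119108744, plus strand: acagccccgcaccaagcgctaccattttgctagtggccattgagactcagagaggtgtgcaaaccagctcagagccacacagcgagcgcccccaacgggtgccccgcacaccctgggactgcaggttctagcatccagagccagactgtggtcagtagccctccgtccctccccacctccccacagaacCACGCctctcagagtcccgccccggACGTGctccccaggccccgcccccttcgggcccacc
Plin2 promoter, chr4:86670060-86670309, minus strand: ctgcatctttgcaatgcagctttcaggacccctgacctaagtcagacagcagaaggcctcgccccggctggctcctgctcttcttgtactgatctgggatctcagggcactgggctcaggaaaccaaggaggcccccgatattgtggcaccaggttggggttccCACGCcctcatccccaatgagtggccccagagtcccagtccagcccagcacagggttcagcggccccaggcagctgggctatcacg
Bnip3 promoter, chr7:138909507-138909756, minus strand: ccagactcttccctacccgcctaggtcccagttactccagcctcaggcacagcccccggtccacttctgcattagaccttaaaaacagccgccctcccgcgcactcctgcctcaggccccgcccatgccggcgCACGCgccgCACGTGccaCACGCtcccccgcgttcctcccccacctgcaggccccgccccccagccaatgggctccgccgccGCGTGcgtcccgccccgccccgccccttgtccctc
Ldha promoter, chr7:46845554-46845803, plus strand: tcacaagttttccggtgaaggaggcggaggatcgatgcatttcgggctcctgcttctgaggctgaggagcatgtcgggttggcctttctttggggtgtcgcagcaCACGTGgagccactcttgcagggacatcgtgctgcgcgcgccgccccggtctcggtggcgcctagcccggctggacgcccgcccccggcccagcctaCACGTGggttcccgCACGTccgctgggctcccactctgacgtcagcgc
Car9 promoter, chr4:43506776-43507025, plus strand: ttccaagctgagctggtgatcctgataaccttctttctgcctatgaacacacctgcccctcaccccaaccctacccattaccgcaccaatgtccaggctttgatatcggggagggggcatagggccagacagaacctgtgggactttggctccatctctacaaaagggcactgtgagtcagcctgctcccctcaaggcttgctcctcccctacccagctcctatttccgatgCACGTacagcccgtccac

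The first window belongs to Slc2a1, which encodes a glucose transporter, and the second to Plin2, which coats lipid droplets. The Bnip3 window held 5 matches, of which 2 came from 1 palindrome. The Ldha window shown held 5, of which 4 came from its 2 palindromes, and a second Ldha window, not shown, held 1 match. The Car9 window held a single match, 18 bases before the start.

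**Figure D1:**
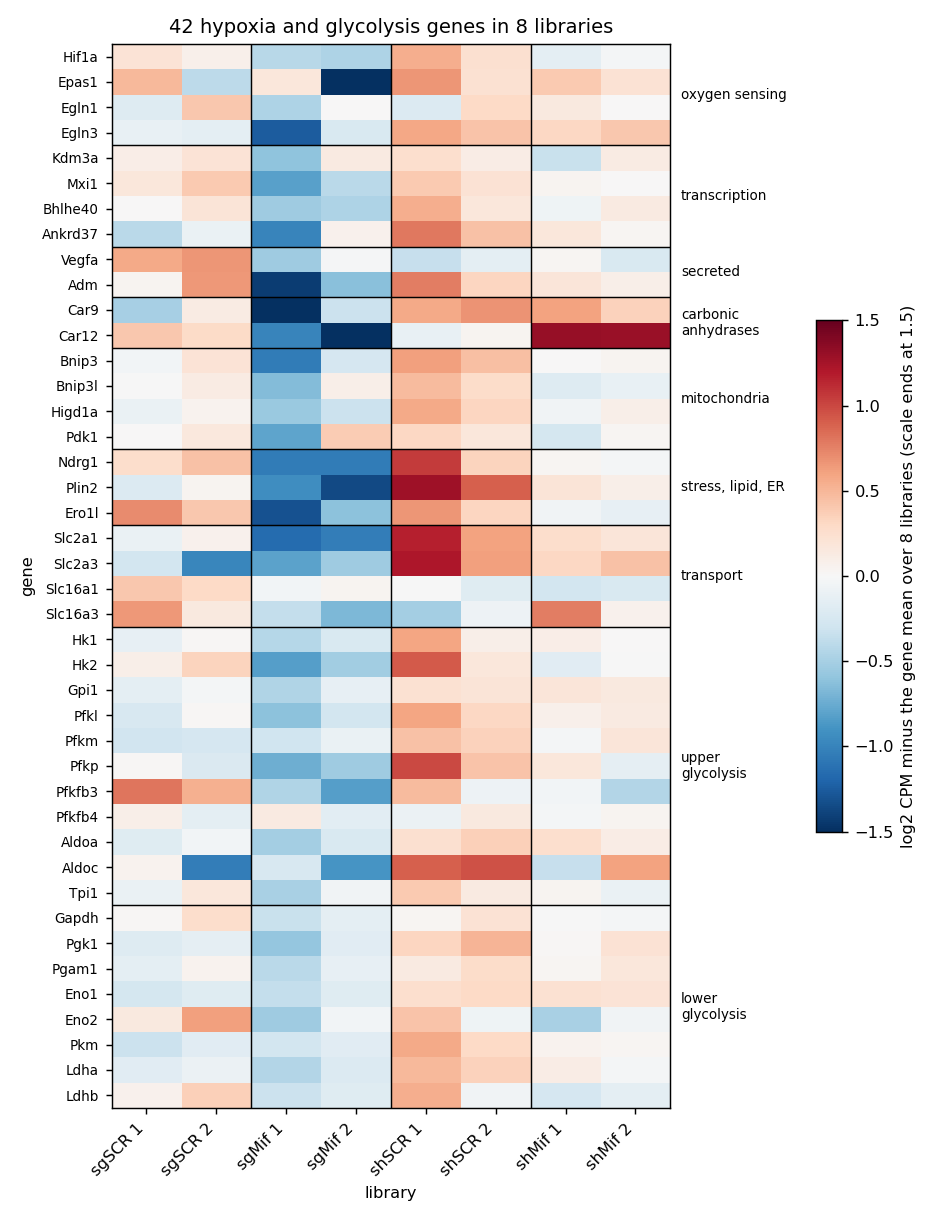
The 42 genes (rows, grouped by role) in the 8 libraries (columns) as log2 CPM minus the gene's mean over the libraries, on a colour scale that ends at 1.5 either way. sgMif 1 is the lowest library for 30 of the 42 genes and shSCR 1 the highest for 24.

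By level per transcript length, the glycolytic enzymes led. Gapdh, which oxidises glyceraldehyde phosphate, ranged from 6357 to 10038 TPM (reads relative to transcript length and to the library's total) and ranked 4 among all genes by mean TPM. Pkm and Eno1, the kinase and the enolase of the last steps, followed with means of 2323 and 2303 TPM and ranges of 1901 to 2782 and 1662 to 2919 TPM, which overlap so far that their order carries no weight. Ldha (mean 1247 TPM), Tpi1 (1220 TPM) and Aldoa (1069 TPM) came next, again with overlapping ranges. Slc2a1 had a mean of 542 TPM but a wider range, from 219 to 959 TPM. Among the targets outside glycolysis the highest means were 491 TPM for Ero1l, 480 TPM for Plin2, 388 TPM for Bnip3 and 378 TPM for Ndrg1. Vegfa had a mean of 163 TPM, and Epas1 (4.68 TPM) and Car12 (2.52 TPM) had low ones.

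Summed over the 19 glycolytic enzymes, TPM made up 1.81 and 2.0% of the total in sgSCR, 1.42 and 1.69% in sgMif, 2.20 and 2.12% in shSCR, and 2.0 and 1.86% in the libraries labelled shMif. The 2 sgMif libraries held the lowest shares and the 2 shSCR libraries the highest. Slc2a1 supplied 97.4 to 98.6% of the TPM of the Slc2a1 and Slc2a3 pair, Ldha 91.3 to 95.2% of the lactate dehydrogenase subunits, Hif1a 92.9 to 98.6% of the Hif1a and Epas1 pair, and Eno1 98.8 to 99.6% of the Eno1 and Eno2 pair. Hexokinase was shared more evenly, with Hk1 at 51.8 to 66.9%. The lactate carriers differed between systems, with Slc16a1 at 71.7 to 75.6% of the pair in the 4 guide libraries and 55.4 to 68.1% in the 4 hairpin libraries, a description without a test.

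In sgMif against sgSCR, 3 of the 42 genes passed the test, all lower in sgMif, against 0.619% of all genes tested that were lower and 0.987% called in either direction. The 3 were Ndrg1, a stress-response gene, Ero1l, an oxidase that helps proteins fold in the endoplasmic reticulum, and Slc2a1. At an unadjusted p under 0.05 there were 19, all lower (7.51% of all genes). A further 36 genes had negative log2 fold changes that did not pass, so that 39 of 42 were negative against 50.5% of all genes tested. For 25 genes both sgMif libraries lay below both sgSCR libraries (24.2% of all genes), and for 0 above (27.1%). The median log2 fold change of the 42 was -0.40, and that of all genes tested was -0.01. In bulk RNA, fewer cells of a kind and less RNA per cell cannot be told apart.

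Ndrg1 (chr15:66929318-66969640, minus strand, mm10) measured 948 and 1072 CPM in sgSCR and 382 in each sgMif library. Both sgMif libraries were therefore far below every other library, since the lowest of the remaining 6 was 771 CPM. Ndrg1 fell by 1.40 ± 0.22 on the log2 scale, or 2.64-fold (adjusted p = 0.0363). Ero1l (chr14:45283087-45318771, minus strand) measured 762 and 615 CPM in sgSCR and 188 and 304 CPM in sgMif, and fell by 1.48 ± 0.24 (2.80-fold, adjusted p = 0.0394). The 2 sgMif libraries differed 1.61-fold for Ero1l but both lay below all others.

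Slc2a1 (chr4:119108711-119137983, plus strand), whose promoter window is shown above, measured 759 and 852 CPM in sgSCR and 364 and 397 CPM in sgMif. It fell by 1.08 ± 0.19 (2.12-fold, adjusted p = 0.0490), with the sgMif pair again the lowest of all 8 libraries. Plin2 measured 329 and 391 CPM in sgSCR and 199 and 148 CPM in sgMif, a log2 fold change of -1.05 ± 0.20 that did not pass (adjusted p = 0.0550). The groups did not overlap for Plin2 either.

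The 3 calls did not hold under every setting, and no share over all genes is set beside the count with a library left out. None of the 3 was called without either sgSCR library, either sgMif library or either library labelled shMif, and 7 genes were called without either shSCR library. Over all 17 alternatives Ndrg1 stayed between -1.5 and -1.27 with an adjusted p of at most 0.227 and was called in 9. Slc2a1 stayed between -1.17 and -0.98 (called in 9) and Ero1l between -1.87 and -1.17 (called in 9). DESeq2 called 13 of the 42, all lower, against 3.37% of the genes it gave an adjusted p, and limma on log2(TPM + 1) called 0. For limma no share over all genes is given, here or in the comparisons below, so its counts are not a result about the 42 genes.

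**Figure D2:**
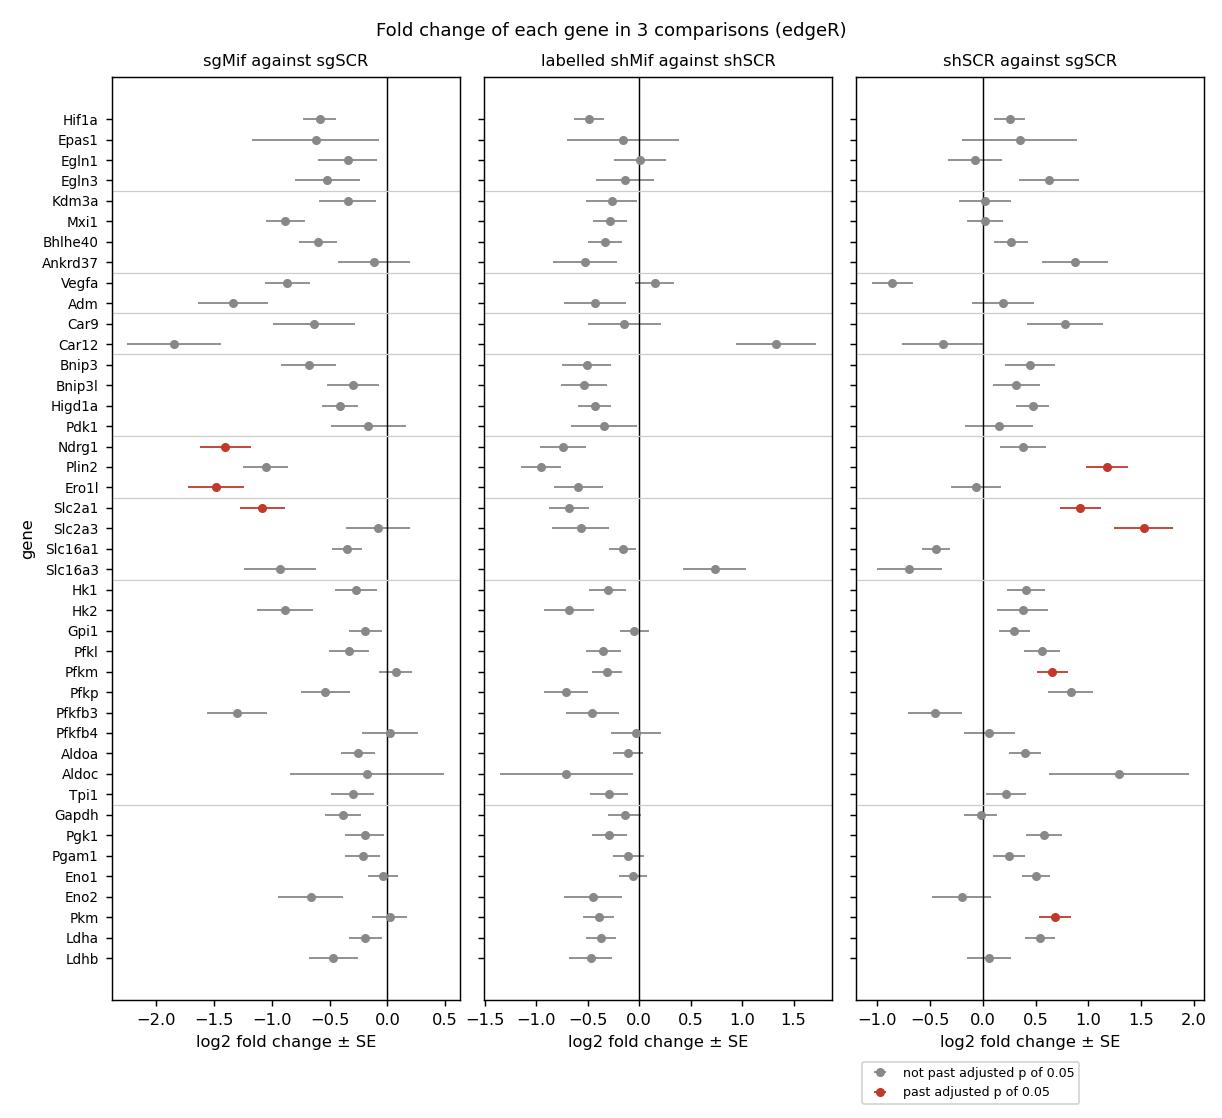
Log2 fold change with its standard error for each of the 42 genes in 3 comparisons, from edgeR; red points passed an adjusted p of 0.05. In sgMif against sgSCR 39 points lie below 0, in the libraries labelled shMif against shSCR 38, and in shSCR against sgSCR 9.

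Among the oxygen sensors and HIF subunits no gene passed in this comparison. Hif1a, the oxygen-regulated subunit, measured 424 and 386 CPM in sgSCR and 275 and 265 CPM in sgMif, a log2 fold change of -0.59 ± 0.15 (adjusted p = 0.103). The 2 groups did not overlap, and the sgMif pair was the lowest of the 8. Epas1, which encodes the HIF-2 alpha subunit, varied within groups: 24.5 and 13.3 CPM in sgSCR and 19.8 and 5.16 CPM in sgMif. Its log2 fold change of -0.62 ± 0.55 turned to 0.071 without sgMif 2.

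No transcriptional regulator or secreted signal passed in sgMif. Mxi1, a MYC antagonist, measured 168 and 197 CPM in sgSCR and 84.7 and 113 CPM in sgMif (log2 fold change -0.88 ± 0.17, adjusted p = 0.0581). Bhlhe40, a transcriptional repressor, measured 220 and 250 CPM against 151 and 159 CPM (-0.60 ± 0.16, adjusted p = 0.123). Neither gene's groups overlapped. Vegfa, the main growth factor for blood vessels, measured 476 and 510 CPM in sgSCR and 222 and 319 CPM in sgMif (-0.87 ± 0.19, adjusted p = 0.0819). Adm, which encodes the vasodilator adrenomedullin, measured 67.8 and 104 CPM in sgSCR and 24.6 and 43.0 CPM in sgMif (-1.34 ± 0.30, adjusted p = 0.0842). In both secreted genes sgMif 1 was the lowest library of the 8.

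No carbonic anhydrase or mitochondrial target passed either. Car12, a membrane carbonic anhydrase at low level, measured 6.69 and 6.18 CPM in sgSCR and 2.56 and 1.08 CPM in sgMif (-1.85 ± 0.41, adjusted p = 0.0774). Car9, the hypoxia-induced carbonic anhydrase, measured 53.0 and 81.7 CPM in sgSCR and 26.3 and 59.9 CPM in sgMif, so that the groups overlapped (-0.64 ± 0.36, adjusted p = 0.416). Bnip3, which marks mitochondria for autophagy, measured 266 and 315 CPM against 132 and 230 CPM (-0.68 ± 0.24, adjusted p = 0.211). Its relative Bnip3l measured 206 and 225 CPM against 131 and 219 CPM, which overlap (-0.30 ± 0.22, adjusted p = 0.533).

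**Figure D3:**
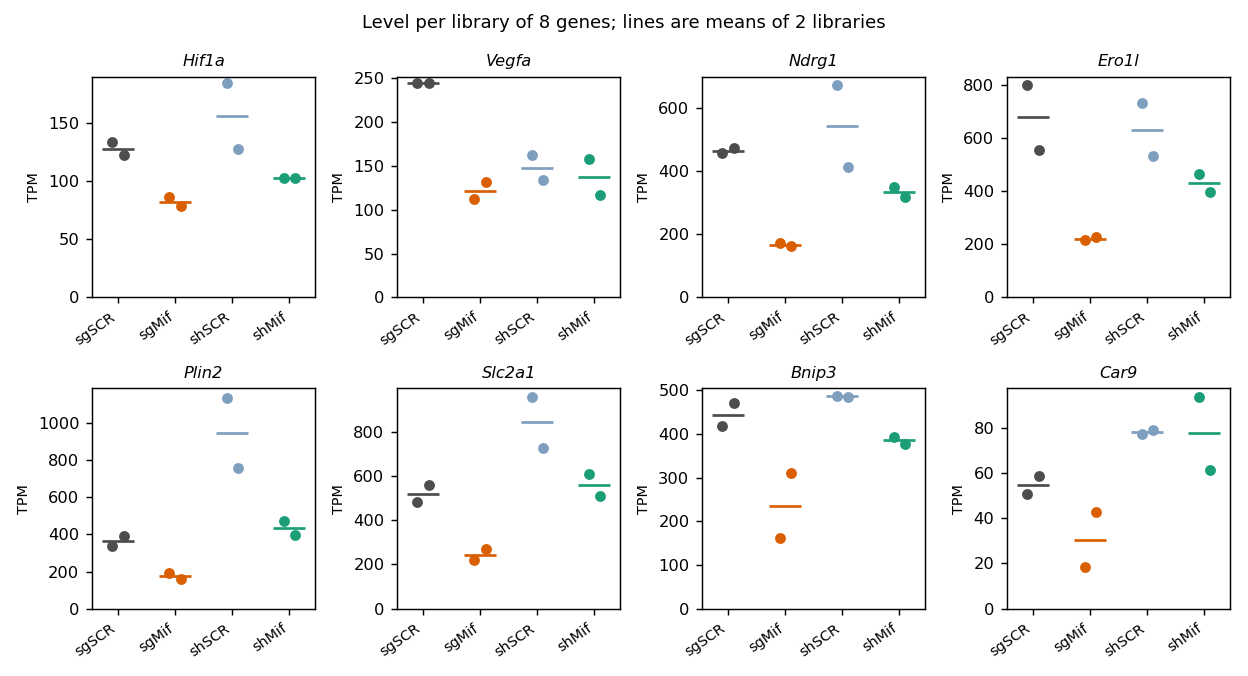
TPM per library (points) and the mean of the 2 libraries (lines) for 8 of the genes, with axes that start at 0. Both sgMif points are the lowest of the 8 libraries for every gene shown except Vegfa, while both shSCR points are the highest for Plin2 and Slc2a1.

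Among glycolytic genes the log2 fold changes in sgMif were smaller by their median. The 23 carriers and enzymes had a median log2 fold change of -0.27 with 1 call, Slc2a1, and the 19 regulators and other targets a median of -0.62 with 2 calls. Pfkfb3, which makes the activator of phosphofructokinase, measured 33.1 and 27.3 CPM in sgSCR and 13.9 and 10.7 CPM in sgMif (-1.30 ± 0.26, adjusted p = 0.0636). The groups were well apart for Pfkfb3. Gapdh measured 4522 and 5349 CPM against 3534 and 4044 CPM (-0.38 ± 0.16, adjusted p = 0.279), also without overlap. Pkm, by contrast, measured 2503 and 2767 CPM against 2568 and 2770 CPM, with a log2 fold change of 0.02 ± 0.15. The 8 enzymes of lower glycolysis, from Gapdh to the lactate dehydrogenases, ranged from -0.66 (Eno2) to 0.02 (Pkm), and none passed. The 17 genes left out by the naming rule, which is given with the processing, ranged from -0.88 to 0.02 in sgMif. Of these 16 were negative, and none passed in any comparison. All 42 genes ranged from -1.85 to 0.07 in sgMif.

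sgMif 1 and sgMif 2 did not carry the same profile. sgMif 1 was the lowest of the 8 libraries for 30 of the 42 genes (71.4%, against 13% of all genes), and sgMif 2 for 8. sgMif 2 was the higher of the 2 in 33 of 42 genes, most of all in Car9 (1.19), Pdk1 (1.17), Ankrd37 (1.05) and Egln3 (1.03) on the log2 scale. The median difference was 0.25 for the 42 and 0.02 for all genes tested. In other groups the second library was the higher in 30 of 42 genes (sgSCR), 12 (shSCR) and 19 (labelled shMif). The sgMif libraries also differed in total estimated reads (21825188 and 45555554) and in olfactory receptor level (1330 and 379.8 CPM). Ndrg1 (-0.00), Hif1a (-0.05), Bhlhe40 (0.07) and Slc2a1 (0.12) differed little between the 2 sgMif libraries, and Epas1 (-1.92) and Car12 (-1.20) were lower in sgMif 2. Without sgMif 1 the median of the 42 genes was -0.29 and without sgMif 2 it was -0.61.

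Macrophage markers were lower in sgMif as well. Of 12 such markers, 2 fell in sgMif (Cd163 and Mrc1) and 11 had negative log2 fold changes, and summed over the list sgSCR reached 439 and 192 CPM where sgMif reached 126 and 102.7 CPM. Cd163 was at 0 in both sgMif libraries, beside 102.6 and 24.9 CPM in sgSCR. It was also low in the hairpin libraries, at 0.60 and 0.02 CPM in shSCR and 0.10 and 0.34 CPM in those labelled shMif. Mrc1 measured 107 and 34.0 CPM in sgSCR and 2.01 and 5.59 CPM in sgMif. In shSCR it measured 15.5 and 12.4 CPM, and in the libraries labelled shMif 18.8 and 13.9 CPM. Endothelial markers summed to 264 and 276 CPM in sgSCR and 163 and 35.7 CPM in sgMif, most of it Pecam1. They summed to 207 and 38.5 CPM in shSCR and to 167 and 53.4 CPM in the libraries labelled shMif. The lowest sums were thus in sgMif 2, shSCR 2 and the library labelled shMif 2, the libraries low in olfactory receptor genes. In sgMif against sgSCR only 1 of the 7 endothelial markers had a negative log2 fold change, the median was 1.10, and none passed. The part of either cell type in the changes of the 42 genes was not tested.

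In the libraries labelled shMif against shSCR, 0 of the 42 genes passed the test in edgeR, against 0.0184% of all genes tested. At an unadjusted p under 0.05 there were 13 (31%, against 9.26% of all genes), 11 lower (5.08% of all genes) and 2 higher (4.18%). DESeq2 called 2, Plin2 and Slc2a1, both lower, against 0.411% of the genes it gave an adjusted p, and limma called 0. Negative log2 fold changes were found for 38 of 42 genes (46.9% of all genes), with a median of -0.34 against 0.03. In 29 genes both libraries labelled shMif lay below both shSCR libraries, against 22.3% of all genes.

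The size of these changes rested in part on shSCR 1. Plin2 measured 918 and 703 CPM in shSCR and 434 and 404 CPM in the libraries labelled shMif (-0.95 ± 0.20, adjusted p = 0.352). Slc2a1 measured 1819 and 1236 CPM against 977 and 925 CPM (-0.68 ± 0.19, adjusted p = 0.448). Ndrg1 measured 1638 and 996 CPM against 804 and 771 CPM (-0.74 ± 0.22, adjusted p = 0.458). In all 3 genes the first shSCR library was the highest of the 8, and it was the highest for 24 of the 42 genes (57.1%, against 18.8% of all genes). Without shSCR 1 the median of the 42 was -0.21, with 38 of 42 still negative. Without shSCR 2 the median was -0.46, with 37 negative.

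Markers of cell types moved in this comparison too, with none past the test. Of 8 mesenchymal and sarcoma markers, 2 had negative log2 fold changes and the median was 0.76, with 4 at an unadjusted p under 0.05. They summed to 16213 and 22745 CPM in shSCR and to 26730 and 36858 CPM in the libraries labelled shMif. Of the 12 macrophage markers 1 was negative, with a median of 0.29, and of 6 T and NK cell markers 0 were, with a median of 0.77. The part of these cell types in the values of the 42 genes was not tested.

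Hif1a measured 535 and 432 CPM in shSCR and 330 and 358 CPM in the libraries labelled shMif (-0.49 ± 0.15, adjusted p = 0.458). Pfkp, the platelet-type phosphofructokinase, measured 320 and 216 CPM against 181 and 146 CPM (-0.71 ± 0.21, adjusted p = 0.462). Neither gene's groups overlapped. Pfkp overlaps Pitrm1 on the opposite strand, as Ankrd37 does Ufsp2, and the sources used here do not say whether reads were assigned by strand.

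Car12 and Slc16a3 were the 2 genes higher in both libraries labelled shMif than in both shSCR libraries, against 19.4% of all genes. Car12 measured 4.69 and 5.21 CPM in shSCR and 12.6 and 12.4 CPM in the libraries labelled shMif (1.33 ± 0.39, adjusted p = 0.456). Slc16a3, a carrier that exports lactate, measured 9.47 and 12.8 CPM against 23.0 and 14.1 CPM (0.73 ± 0.31, adjusted p = 0.529). Vegfa, lower in sgMif, measured 254 and 292 CPM in shSCR and 329 and 275 CPM here (0.15 ± 0.19), and on TPM its log2 fold change was -0.11.

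The difference between the effects of the hairpin and the guide was tested directly, as the libraries labelled shMif minus shSCR, less sgMif minus sgSCR. No gene of the 42 passed in edgeR, against 0.092% of all genes tested, and 6 had an unadjusted p under 0.05 (14.3%, against 15.8% of all genes). DESeq2 called 3, against 4.54% of the genes it gave an adjusted p, and limma 0. Car12 had the lowest p, with a difference of 3.18 ± 0.56 (adjusted p = 0.101), followed by Slc16a3 (1.66 ± 0.44, adjusted p = 0.173) and Vegfa (1.01 ± 0.27, adjusted p = 0.175), the 3 that DESeq2 called. For Plin2 the difference was 0.10 ± 0.28, for Hif1a 0.09 ± 0.21 and for Slc2a1 0.40 ± 0.27, so the 2 effects could not be told apart at this spread, which does not show that they were alike.

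Over both systems, with the system as a term in the fit, all 42 genes had negative log2 fold changes in the libraries labelled sgMif or shMif (50.1% of all genes), with a median of -0.34 against 0.00. None of the 42 passed in edgeR, where 0% of the 16309 genes did, and 19 had an unadjusted p under 0.05 (45.2%, against 8.01% of all genes). limma also called none, and DESeq2 called 13, all lower, against 0.937% of the genes it gave an adjusted p. This fit draws on the same libraries as the 2 comparisons above and is not further evidence.

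Plin2 (-1.0 ± 0.14, adjusted p = 0.133), Slc2a1 (-0.88 ± 0.16, adjusted p = 0.147), Ndrg1 (-1.07 ± 0.19, adjusted p = 0.155) and Hif1a (-0.54 ± 0.11, adjusted p = 0.198) had the smallest p-values of the 42. For 7 genes all 4 libraries labelled sgMif or shMif lay below all 4 controls, against 1.77% of all genes. Those were Hif1a, Mxi1, Ndrg1, Ero1l, Hk2, Gapdh and Ldhb, where Hk2 (hexokinase 2) is named after its values were seen. Hif1a ranged from 265 to 358 CPM in those 4 libraries and from 386 to 535 CPM in the 4 controls. Slc2a1 is not among the 7, because the libraries labelled shMif (977 and 925 CPM) lay above sgSCR (759 and 852 CPM).

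**Figure D4:**
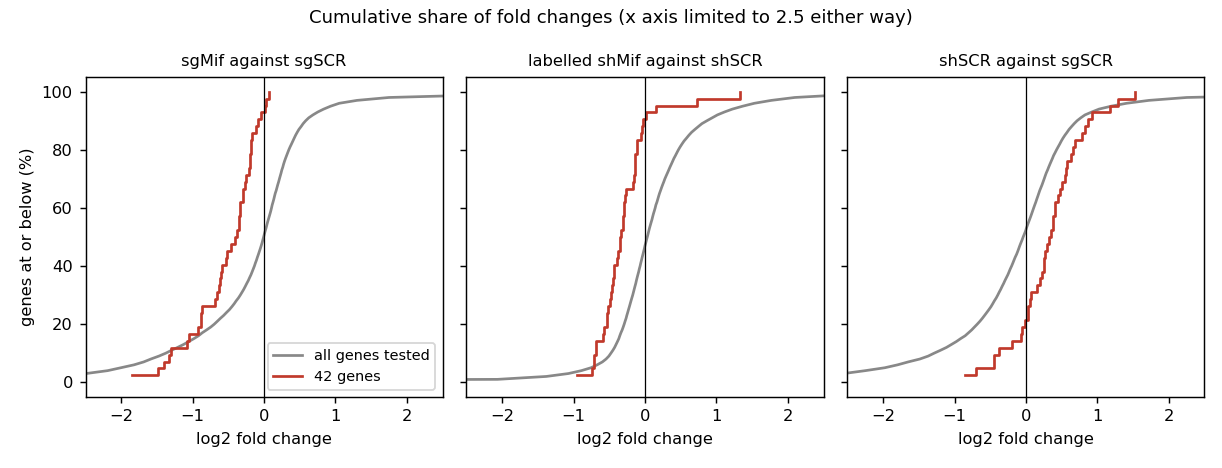
Cumulative share of log2 fold changes for the 42 genes (red) and all 16309 genes tested (grey) in 3 comparisons. The red curve lies left of the grey one around the middle in sgMif against sgSCR (medians -0.40 and -0.01) and in the libraries labelled shMif against shSCR (-0.34 and 0.03), and right of it in shSCR against sgSCR (0.33 and -0.04).

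The 2 control groups also differed from each other in some of the 42 genes. In shSCR against sgSCR, 5 of the 42 passed, all higher in shSCR, against 2.23% of all genes tested that were higher and 4.02% in either direction. They were the glucose transporters Slc2a1 and Slc2a3, the lipid droplet gene Plin2, the muscle-type phosphofructokinase Pfkm and the pyruvate kinase Pkm. Negative log2 fold changes were found for 9 of 42 genes (52.4% of all genes), and the median was 0.33 against -0.04. Both shSCR libraries lay above both sgSCR libraries for 23 genes (28.4% of all genes) and below them for 5 (26.3%). Because sgSCR and shSCR also serve as the references for the effects above, these values are set side by side and not correlated.

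Slc2a3, the high-affinity glucose transporter, measured 23.0 and 14.1 CPM in sgSCR and 64.5 and 42.4 CPM in shSCR (1.52 ± 0.28, adjusted p = 0.0308). Plin2 measured 329 and 391 CPM against 918 and 703 CPM (1.17 ± 0.20, adjusted p = 0.0232). Slc2a1 measured 759 and 852 CPM against 1819 and 1236 CPM (0.92 ± 0.19, adjusted p = 0.0409). In each of the 3 both shSCR libraries exceeded both sgSCR libraries, with shSCR 1 the highest of all. In this comparison the gap between controls for Plin2 was 2.25-fold and for Slc2a1 1.90-fold, beside the 2.08-fold and 2.12-fold lower levels in sgMif.

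Pfkm measured 44.0 and 45 CPM in sgSCR and 72.5 and 68.1 CPM in shSCR (0.66 ± 0.14, adjusted p = 0.0464). It overlaps Senp1 on the opposite strand, whose mean level was 137% of its own, and was called in 5 of 16 alternatives. Pkm measured 2503 and 2767 CPM against 4628 and 3826 CPM (0.68 ± 0.15, adjusted p = 0.0480) and on TPM had a log2 fold change of 0.13. Vegfa went the other way, at 476 and 510 CPM in sgSCR and 254 and 292 CPM in shSCR, without passing (-0.85 ± 0.19, adjusted p = 0.0526), and was called lower in 8 of 16 alternatives.

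Single libraries weighed on this count. The count of 5 was 0 without shSCR 1, without sgSCR 1 or without sgSCR 2, 12 without shSCR 2 (Vegfa, lower, among them), 3 without either sgMif library (Slc2a3 and Plin2, higher, and Vegfa, lower) and 1, Plin2, without either library labelled shMif. Restricting the counts to protein-coding transcripts left 2 calls, Plin2 and Slc2a3. DESeq2 called 13, and limma called 0. The fit with a replicate block also called 0, but there the contrast covers only the first replicate number of each system. No share over all genes is set beside these counts or those with a library left out. The counts are therefore not a result about the genes described here. Macrophage markers summed to 214 and 253 CPM in shSCR beside 439 and 192 CPM in sgSCR, with 1 of 12 lower past the test (Cd163). Of the 8 mesenchymal and sarcoma markers 7 had negative log2 fold changes, with a median of -0.58 and sums of 16213 and 22745 CPM in shSCR beside 28829 and 30147 CPM in sgSCR, and none passed. All 4 tested B cell markers were negative (median -2.26) and all 4 tested erythroid markers positive (median 2.23), none past the test. The part of these cell types was not tested.

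Pkm also differed in the form of its transcript. Pyruvate kinase is made with 1 of 2 mutually exclusive exons of 167 bases each, which give the M1 form typical of muscle and brain or the M2 form of proliferating cells. The exons lie at chr9:59675029-59675195 (M1) and chr9:59675568-59675734 (M2) on the plus strand of mm10 and are coding. They differ at 64 positions and are identical at 103 (61.7%), and the capitals mark the differing bases by which reads can be assigned to either form.
Pkm exon of the M1 form: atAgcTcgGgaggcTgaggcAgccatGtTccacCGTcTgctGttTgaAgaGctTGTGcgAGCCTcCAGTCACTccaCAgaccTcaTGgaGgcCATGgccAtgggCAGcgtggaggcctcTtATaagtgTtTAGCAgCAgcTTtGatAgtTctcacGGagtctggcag
Pkm exon of the M2 form: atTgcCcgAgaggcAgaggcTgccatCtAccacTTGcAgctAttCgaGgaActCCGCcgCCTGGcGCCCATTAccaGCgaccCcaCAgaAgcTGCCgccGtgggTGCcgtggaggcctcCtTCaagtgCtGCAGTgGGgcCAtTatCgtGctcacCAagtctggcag

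The M1 form made up 12.1 and 12.8% of the TPM of both forms in sgSCR, 14.1 and 14.5% in sgMif, 34.3 and 23.4% in shSCR, and 14.9 and 14.1% in the libraries labelled shMif. The 2 shSCR libraries were above the other 6, and M2 remained the main form in all 8. From estimated reads in place of TPM the shares were lower, 9.71 to 11.9% in the 6 libraries and 30.3 and 19.1% in shSCR, in the same order of groups. The shares are a description without a test, and an exact permutation test of 2 libraries against 2 cannot reach 0.05. The transcript with the M1 exon stood at 782 and 410 TPM in shSCR and at 146 to 224 TPM elsewhere.

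**Figure D5:**
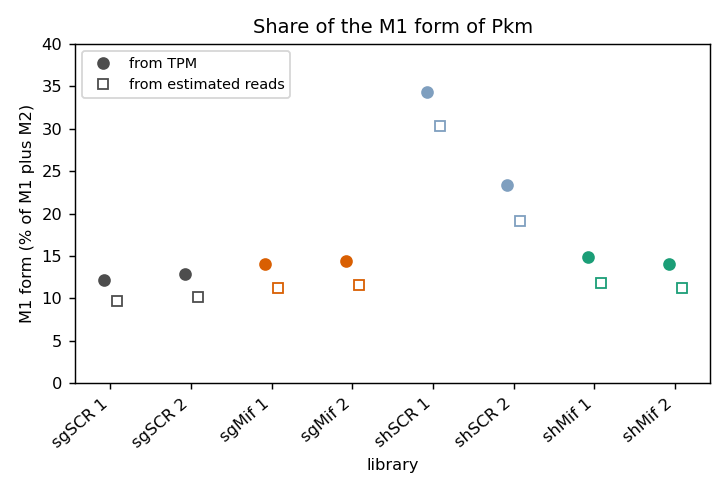
Share of the M1 form among the M1 and M2 forms of Pkm per library, from TPM (circles) and from estimated reads (squares), with an axis that starts at 0. shSCR 1 and shSCR 2 lie at 34.3 and 23.4% from TPM, and the other 6 libraries between 12.1 and 14.9%.

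Counts and TPM of the Pkm gene diverged. A short fragment (Pkm-208) with neither exon held 502 to 1142 TPM in 7 libraries and 12.9 TPM in shSCR 1, on at most 3265 estimated reads. Gene TPM can likewise rise through short transcripts, as for Mxi1, at 165 TPM in shSCR 1 and 76.8 TPM in shSCR 2 while its counts were 196 and 174 CPM. Reads of Pgk1 may be shared with near-identical gene copies, which summed to 23.8% of its level, and those of Eno1 with copies at 5.93%.

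Related genes outside the 42 were read from 4 further lists. Like the 42, the lists were chosen with earlier results of these data known, so they are not independent evidence. Of 31 tested other HIF targets, 6 fell and 0 rose in sgMif, with 25 negative and a median of -0.72, beside -0.01 and 0.619% lower calls over all genes tested. Nos2, the inducible nitric oxide synthase, measured 183 and 167 CPM in sgSCR and 32.8 and 19.7 CPM in sgMif (-2.74 ± 0.32, adjusted p = 0.0199). Hmox1, which degrades haem, measured 369 and 336 CPM against 78.7 and 51.9 CPM (-2.43 ± 0.37, adjusted p = 0.0333). Nos2 and Hmox1 are also genes of activated macrophages, whose markers were lower in the same libraries, and the part of such cells was not tested. Angptl4, an inhibitor of lipoprotein lipase, measured 61.3 and 49.7 CPM against 18.8 and 11 CPM (-1.90 ± 0.28, adjusted p = 0.0333), and Lox, which cross-links collagen, 1078 and 1233 CPM against 555 and 491 CPM (-1.14 ± 0.16, adjusted p = 0.0330).

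None of the 31 passed in the libraries labelled shMif against shSCR, where 5 had an unadjusted p under 0.05 (9.26% of all genes did) and the median was -0.13. In shSCR against sgSCR 2 rose, the placental growth factor Pgf (2.86 ± 0.46, adjusted p = 0.0210) and the collagen prolyl hydroxylase subunit P4ha1 (0.98 ± 0.18, adjusted p = 0.0295), and 3 fell, Lox (-1.5 ± 0.16), Nos2 (-1.87 ± 0.31) and Angptl4 (-1.52 ± 0.28). For Lox, Nos2 and Angptl4 the control hairpin libraries were thus also below the control guide libraries. Of 13 tested other regulators of the HIF pathway, 24 tested other genes of glycolysis, pyruvate and lactate, and 8 genes of the pentose phosphate pathway, none passed in sgMif against sgSCR, with medians of 0.04, 0.06 and 0.30 and with 0, 4 and 2 at an unadjusted p under 0.05, where 16.6% of all genes were. The partner subunit Arnt measured 89.1 and 92.5 CPM in sgSCR and 90.1 and 110.5 CPM in sgMif. In shSCR against sgSCR 1 of these genes passed, Pgd of the pentose phosphate pathway (0.62 ± 0.13, adjusted p = 0.0413).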

How the data were processed

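Bulk RNA sequencing of sorted sarcoma cells gave 8 libraries, which the sample titles place in 4 groups of 2 (sgSCR, sgMif, shSCR, shMif). Per the submitters' processing notes, the authors used Trimmomatic and Salmon with build mm10; the sources used here give no versions, strandedness or transcript release. Per the file headers, each deposited table gives, per transcript, an estimated count of reads (NumReads) and a value in TPM, which the authors scaled by effective length. Transcripts were joined to genes through GENCODE release M21; 569 of 116546 had no match (0.101 to 0.205% of reads).

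Estimated counts were summed per gene and rounded to whole numbers. Genes were kept by filterByExpr (minimum count 10, minimum total 15) and tested with the quasi-likelihood test of edgeR 4.0.16 in R 4.3.3 after scaling by the trimmed mean of M values, in 1 fit of 4 group means (4 residual degrees of freedom) or a fit with additive terms for system and Mif label (5). p-values were adjusted by the Benjamini-Hochberg method over 16309 genes at 0.05. A gene is said to rise or fall only past that threshold, and groups do not overlap when every library of one lies beyond every library of the other.

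The 42 genes, the further lists and the rule for naming genes were chosen with earlier results of these data known. Named genes are those past the threshold, the gene of highest mean TPM and of largest change in each role, Mif, and up to 4 called genes per further list; others are said to be chosen after their values were seen or are given as counts. Where 2 gene identifiers are named Aldoa, the more abundant was used. Promoters are those of RefSeq, and gene copies were found with blastn 2.17.0 (at least 95% identity over 50% of the transcript).

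Alternatives were DESeq2 1.42.0, limma 3.58.1 on log2(TPM + 1), relative log expression factors in edgeR, no low-count filter, protein-coding transcripts only, a replicate block, each system alone, a term for olfactory receptor level (above or below 1000 CPM), the 5 libraries above it alone, and leaving out each library. When a library was left out, the remaining library of that group was taken to vary as the other groups did. On simulated data of 15803 genes for sgMif against sgSCR, the fit recovered 18% of 2-fold and 72% of 4-fold changes, with 13 false calls.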

Additional observations from a re-analysis of the deposited data

Results flagged for a closer look

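1 result was singled out because the guide and hairpin effects differed by a direct test. Lox, a HIF target outside the 42 genes that encodes a collagen cross-linking enzyme, was lower in sgMif than in sgSCR (555 and 491 against 1078 and 1233 CPM) and higher in the libraries labelled shMif than in shSCR (726 and 667 against 369 and 449.8 CPM). The lower level in sgMif passed (edgeR, adjusted p = 0.0330), while the higher level in the libraries labelled shMif did not. In the direct test, which 0.092% of all genes passed, the difference of effects was 1.91 ± 0.22 on the log2 scale (edgeR, adjusted p = 0.0471). This difference was 1.76 to 2.06 with any 1 library left out. Beside it, the controls also differed for Lox, which was lower in shSCR than in sgSCR (-1.5 ± 0.16, adjusted p = 0.00471).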

How the results depend on the processing

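The number of the 42 genes past the threshold moved with the settings. So did the number of all genes: DESeq2 called 3.37% lower in sgMif against sgSCR, beside 0.619% with edgeR. Shares over all genes are not set beside the counts below, which are therefore not a result about the 42 genes. For sgMif against sgSCR it was 3, and became 15 without the low-count filter, 15 in the 5 libraries of high olfactory receptor level, 13 with DESeq2, 0 with the olfactory class as a term, 0 with limma on log2(TPM + 1), and 0 to 7 with 1 library left out. For the libraries labelled shMif against shSCR (0) it was 7 without the filter, 11 in the 5 libraries, 2 with DESeq2 and 0 to 6 with 1 library left out. For the difference of effects (0) it was 5, 5 and 3 in that order, and 0 to 1 with 1 library left out. For shSCR against sgSCR (5) it was 13 without the filter, 2 on protein-coding transcripts, 19 in the 5 libraries, 13 with DESeq2, 0 with limma and 0 to 12 with 1 library left out. For the joint effect (0) it was 11 without the filter and 13 with DESeq2. The causes were not tested; the fit to the 5 libraries has 1 residual degree of freedom, and leaving out a library lets more genes through the filter.

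Medians kept their sign in these settings. For sgMif against sgSCR the median was -0.62 in the 5 libraries and -0.61 to -0.29 with 1 library left out. For the libraries labelled shMif against shSCR it was -0.51 and -0.46 to -0.21. For shSCR against sgSCR it was 0.18 to 0.47 with 1 library left out.

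The replicate number is not said to mark a shared animal or batch, and with 2 pairs it cannot be shown to pair libraries. Second minus first library correlated at 0.182 between sgSCR and sgMif and at 0.263 between shSCR and the libraries labelled shMif over genes. With the replicate number as a block, 6 of the 42 were called in sgMif against sgSCR and 0 in shSCR against sgSCR, whose median became 0.54.

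Small effects changed sign. In sgMif against sgSCR, Pkm (0.02) was -0.0026 with relative log expression and with DESeq2, -0.17 on TPM and -0.037 in the 5 libraries, and -0.059 to 0.11 with 1 library left out. Epas1 became 0.057 and Pfkm -0.029 in the 5 libraries, and Slc2a3 0.036 on protein-coding transcripts. With 1 library left out, Epas1 ranged from -1.87 to 0.071, Pfkm from -0.021 to 0.17, Slc2a3 from -0.37 to 0.31, Ankrd37 from -0.74 to 0.32 and Bnip3l from -0.71 to 0.027. In the libraries labelled shMif against shSCR, Car9 became 0.0305 in the 5 libraries, Vegfa -0.11 on TPM, and Epas1 ranged from -0.36 to 0.0705 with 1 library left out.

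Of 1110 values of single genes under an alternative, 19 changed sign, 125 lost and 69 gained the threshold, and 897 did neither. From estimated reads, the M1 share of Pkm was 9.96% in sgSCR, 11.4% in sgMif and 11.6% in the libraries labelled shMif.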
